A study of Homo sapiens with 6 samples.

Results

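The 9 genes described here write, copy, read or remove DNA methylation. They were followed in libraries labelled as T47D cells after MI-503 or DMSO. They were taken by name: the methyltransferases DNMT1, DNMT3A and DNMT3B, the dioxygenases TET1, TET2 and TET3, the ring finger proteins UHRF1 and UHRF2, and the methyl-CpG reader MBD2. All 9 were present among the 61279 genes to which the reads were summed, and all 9 passed the filter on low counts. T47D is an established hormone receptor-positive luminal breast cancer cell line. MI-503 binds menin and keeps it from MLL1, a methyltransferase of histone H3 lysine 4 that KMT2A encodes. By the labels, RNA was taken after 24 hours with 4 μmol/L MI-503 in 3 libraries and after 24 hours with DMSO, the solvent control, in 3 libraries.

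Methyl groups on cytosine sit mostly at CG dinucleotides (CpG). DNMT3A and DNMT3B place them on unmethylated DNA. After replication each daughter strand lacks them, UHRF1 binds the hemimethylated sites and recruits DNMT1, which restores the pattern. TET enzymes oxidize 5-methylcytosine with oxoglutarate, iron and oxygen, and the oxidized bases are lost at replication or cut out by the glycosylase TDG and replaced by base excision repair. MBD2 binds methylated CpG and brings the NuRD deacetylase complex to it. Breast cancers lose methylation over much of the genome and gain it at the CpG islands of some promoters.

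The libraries labelled DMSO were at or near 0 in defining markers of a luminal breast cell and carried markers of prostate cells. ESR1, the estrogen receptor gene, was at 209.5, 240.3 and 295.5 CPM in libraries labelled MI-503, against 0, 0.194 and 0 CPM in libraries labelled DMSO. CPM are reads of a gene scaled to library size, here by the trimmed mean of M values (TMM). KLK3, which encodes prostate-specific antigen, had no reads in the 3 libraries labelled MI-503, against 3762, 3687 and 3673 CPM in those labelled DMSO. Of 15 luminal breast markers, 14 were higher and TBX3 was lower with the MI-503 label, with summed levels of 10507 to 13105 CPM under MI-503 and of 498 to 642 CPM under DMSO. TBX3 and STC2 made up most of the DMSO sum, with means of 399 and 139 CPM, and KRT19 followed at 25.5 CPM. All 13 prostate markers were lower, with sums of 151 to 156 CPM under MI-503 and of 6545 to 8169 CPM under DMSO. An effect of MI-503 and a difference between the cells of the 2 groups of libraries therefore cannot be told apart in any comparison given here, and groups are named by their labels throughout. Among blood cell markers 2 of 10 passed the filter, with sums of 3.8 to 4.34 CPM under MI-503 and of 0.995 to 2.83 CPM under DMSO. Of 10 fibroblast markers 5 passed, with sums of 215 to 319 CPM under MI-503 and of 492 to 845 CPM under DMSO. FN1 and COL1A1 made up most of these sums and differed in opposite directions. FN1 averaged 153 CPM under MI-503 and 624 CPM under DMSO, and COL1A1 96.1 CPM under MI-503 and 36.1 CPM under DMSO. VIM, COL1A2, COL3A1, DCN, LUM and THY1 were under 1 CPM in every library. These are bulk libraries, so fewer cells of a type and less RNA per cell cannot be told apart. Totals ran from 17404736 to 22168525 reads, and mitochondrial genes took 1.37% to 7.12% of them. The Pearson correlation of log2(CPM + 1) across genes, which do not count as replicates, was 0.974 to 0.992 within labels and 0.758 to 0.778 between them.

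Of the 9 genes, 4 were lower with the MI-503 label, 0 were higher and 5 did not pass the test (edgeR's quasi-likelihood test, Benjamini-Hochberg adjusted p under 0.05 over 16442 genes). The lower ones were DNMT1, DNMT3A, TET3 and MBD2, and DNMT3A had the greatest difference of the 9. The labels differ widely, and 62.9% of all genes tested passed in either direction, 31.2% lower and 31.7% higher. The share of the 9 genes that passed was 44.4%, all of it lower. Under unadjusted p below 0.05, 5 were lower and 0 higher. The share of all genes at that threshold was not computed, so these counts cannot be set against it. At an adjusted p under 0.05, DESeq2 and limma also called 0 higher. Without DMSO replicate 3, edgeR called 1 higher, UHRF1. The median log2 fold change of the 9 genes was −0.58, against −0.004 over all genes tested. None of the 9 passed the further limit of the study, a log2 fold change beyond 2 in size, which 24.3% of all genes tested passed. The 3 values of each label did not overlap for 3 of the 9 genes, DNMT1, DNMT3A and MBD2, and for 68.7% of all genes tested.

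**Figure D1:**
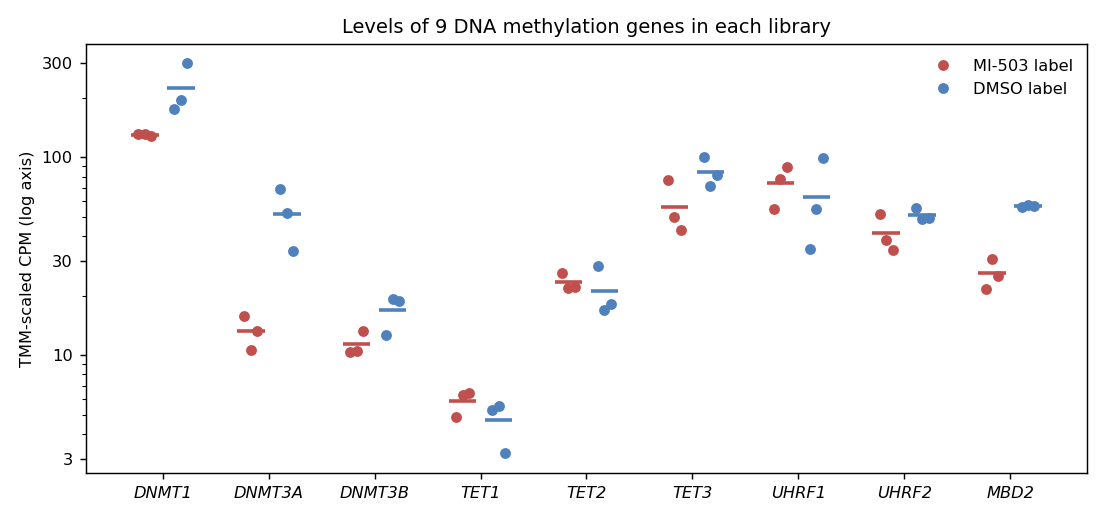
TMM-scaled CPM of the 9 genes on a log axis, with 1 dot per library (3 labelled MI-503 in red, 3 labelled DMSO in blue) and a bar at the mean of each label. DNMT1, DNMT3A and MBD2 have dots that do not overlap between labels, with means of 130.1, 13.2 and 25.9 CPM under MI-503 and of 223, 51.6 and 56.6 CPM under DMSO.

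**Figure D2:**
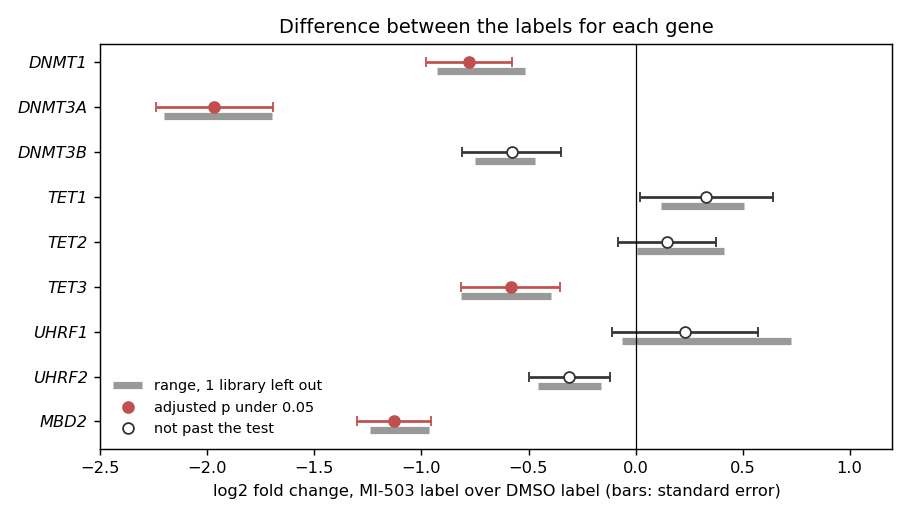
log2 fold change of each gene, MI-503 label over DMSO label, with its standard error from edgeR (thin bars) and the range when 1 library at a time was left out (grey). Filled points passed at an adjusted p under 0.05, and the grey range of UHRF1 runs from −0.065 to 0.73.

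The promoters of the 4 lower genes are shown with that of UHRF1, the partner of DNMT1, because CpG content is the feature on which these enzymes themselves act. Sequences are from RefSeq (GRCh38.p14), on the strand of the gene, from 250 bases before to 30 bases after the start of the transcript that GENCODE marks as canonical, with every CpG in capitals. The DNMT1 stretch is chr19:10194924-10195203 (minus strand), that of DNMT3A chr2:25341896-25342175 (minus strand) and that of MBD2 chr18:54224640-54224919 (minus strand). That of TET3 is chr2:73984660-73984939 (plus strand) and that of UHRF1 chr19:4909251-4909530 (plus strand).
DNMT1: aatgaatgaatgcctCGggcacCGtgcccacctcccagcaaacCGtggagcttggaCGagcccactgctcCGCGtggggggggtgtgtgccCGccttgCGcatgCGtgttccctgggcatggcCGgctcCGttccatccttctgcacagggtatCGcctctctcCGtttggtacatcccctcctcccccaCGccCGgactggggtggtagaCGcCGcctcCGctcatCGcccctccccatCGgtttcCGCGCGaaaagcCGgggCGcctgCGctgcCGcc
DNMT3A: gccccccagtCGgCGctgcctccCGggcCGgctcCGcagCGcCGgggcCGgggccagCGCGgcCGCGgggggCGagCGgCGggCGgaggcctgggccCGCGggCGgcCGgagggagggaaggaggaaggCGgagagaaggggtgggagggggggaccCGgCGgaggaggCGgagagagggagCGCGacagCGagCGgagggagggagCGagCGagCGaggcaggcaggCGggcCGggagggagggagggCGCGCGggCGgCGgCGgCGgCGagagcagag
MBD2: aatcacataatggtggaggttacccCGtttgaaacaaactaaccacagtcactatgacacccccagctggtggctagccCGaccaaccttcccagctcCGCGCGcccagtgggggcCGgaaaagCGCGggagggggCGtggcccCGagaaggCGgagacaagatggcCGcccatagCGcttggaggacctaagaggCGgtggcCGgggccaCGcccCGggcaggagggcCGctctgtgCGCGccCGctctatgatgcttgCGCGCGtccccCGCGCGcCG
TET3: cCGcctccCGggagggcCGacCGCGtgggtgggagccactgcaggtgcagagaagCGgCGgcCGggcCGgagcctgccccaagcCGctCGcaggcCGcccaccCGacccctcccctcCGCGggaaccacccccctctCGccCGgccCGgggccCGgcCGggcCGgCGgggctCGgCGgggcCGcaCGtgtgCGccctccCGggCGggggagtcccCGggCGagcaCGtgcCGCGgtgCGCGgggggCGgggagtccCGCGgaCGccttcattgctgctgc
UHRF1: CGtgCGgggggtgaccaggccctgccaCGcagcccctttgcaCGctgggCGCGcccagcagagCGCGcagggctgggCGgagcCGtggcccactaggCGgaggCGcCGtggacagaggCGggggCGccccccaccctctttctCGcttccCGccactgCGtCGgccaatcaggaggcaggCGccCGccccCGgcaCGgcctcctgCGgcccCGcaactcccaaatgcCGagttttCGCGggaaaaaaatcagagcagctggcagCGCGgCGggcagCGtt
In the full windows of 300 bases, to 50 bases after the start, CpG numbered 30 for DNMT1, 46 for DNMT3A, 32 for MBD2, 45 for TET3 and 36 for UHRF1, against a median of 14 over 35116 promoters. DNMT3A stood at the 97.6th percentile of all promoters for this count and TET3 at the 97.1st. Of the genes that did not pass the test, TET2 had 35 CpG, UHRF2 had 26 and TET1 had 10 in the matching window. For DNMT3B the only listed window, with 3 CpG, belongs to a start 17467 bases from the canonical one and was not read further. Both strands were searched for 3 motifs that E2F factors are known to bind at S phase genes, TTTCGCGC, TTTGGCGC and TTTCCCGC. DNMT1 held TTTCGCGC on the reverse strand, as GCGCGAAA beginning 2 bases before the start. UHRF1 held TTTCCCGC on the reverse strand, as GCGGGAAA beginning 14 bases before the start, and the window at another listed UHRF1 start had TTTCGCGC beginning 160 bases before it. No match was found in the canonical windows of DNMT3A, TET1, TET2, TET3, UHRF2 and MBD2, and no match overlapped another. Any of the 3 occurred in 2.74% of all promoters (TTTCGCGC in 0.52%, TTTGGCGC in 0.65%, TTTCCCGC in 1.63%). A match is a description of letters and not a site shown to be bound.

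Among the genes that copy methylation after replication, DNMT1 was lower and its partner UHRF1 did not pass the test. DNMT1 (chr19:10133342-10231286, minus strand, GRCh38), the maintenance methyltransferase, was at 131, 131 and 128 CPM in libraries labelled MI-503, against 176, 196 and 298 CPM in libraries labelled DMSO. The MI-503 values lay close together and below every DMSO value, while DMSO replicate 3 stood well above the other two. This was a 1.72-fold lower level, a log2 fold change of −0.78 (standard error 0.20, edgeR adjusted p = 0.00684). Without DMSO replicate 3 it was −0.52 (adjusted p = 0.012, edgeR). The gene overlaps S1PR2 on the same strand, which was given 129 to 307 reads per library under MI-503 and 112 to 144 under DMSO, against at least 2157 for DNMT1.

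UHRF1 (chr19:4903080-4962154, plus strand), which reads hemimethylated CpG through its SRA domain, was at 54.7, 78.1 and 89.3 CPM with the MI-503 label, against 34.6, 54.9 and 99.7 CPM with the DMSO label. The DMSO values spanned those of MI-503 on both sides. Its log2 fold change was 0.23 (standard error 0.34, adjusted p = 0.577 by edgeR), and the direction rested on single libraries. Without DMSO replicate 3 it was 0.73 (adjusted p = 0.0351), and without DMSO replicate 1 it was −0.065 (adjusted p = 0.857). UHRF2 (chr9:6413151-6507054, plus strand), a paralog that also binds hydroxymethylated CpG and does not replace UHRF1 in maintenance, was at 51.9, 38.3 and 33.9 CPM under MI-503, against 55.5, 48.6 and 49.6 CPM under DMSO. MI-503 replicate 1 lay inside the DMSO range and the other two below it. The log2 fold change of −0.31 (standard error 0.19) did not pass (edgeR adjusted p = 0.177), but it did without MI-503 replicate 1, at −0.46 (adjusted p = 0.0443).

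Both UHRF1 and DNMT1 are expressed mainly in S phase, so their levels were set beside 16 S phase and proliferation genes. The median level of these 16 genes was 99.4, 127 and 124 CPM in MI-503 replicates 1 to 3, against 82.3, 109 and 143 CPM in DMSO replicates 1 to 3. Within each label the library with the lowest UHRF1 was also the one with the lowest list median, and DMSO replicate 3 was highest in UHRF1, DNMT1 and the list median alike. Under MI-503 the highest libraries differed, with UHRF1 highest in replicate 3 (89.3 CPM) and the list median in replicate 2 (127 CPM). DNMT1 under MI-503 did not follow the list, with its 3 values near each other while the list median varied. Of the 16 genes, 4 were higher (CDT1, CCNE2, GINS2, TOP2A), 4 were lower (MCM5, MCM7, TYMS, CDC45) and 8 did not pass, with a median log2 fold change of 0.10. TOP2A, topoisomerase II alpha, averaged 742 ± 128 CPM under MI-503 and 195 ± 18.9 CPM under DMSO (SD, n = 3 each), and CDC45, part of the replicative helicase, averaged 11.7 ± 1.30 CPM under MI-503 and 38.8 ± 14.6 CPM under DMSO (SD, n = 3 each). The part of cell cycle differences between libraries in the DNMT1 and UHRF1 values was not tested.

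**Figure D3:**
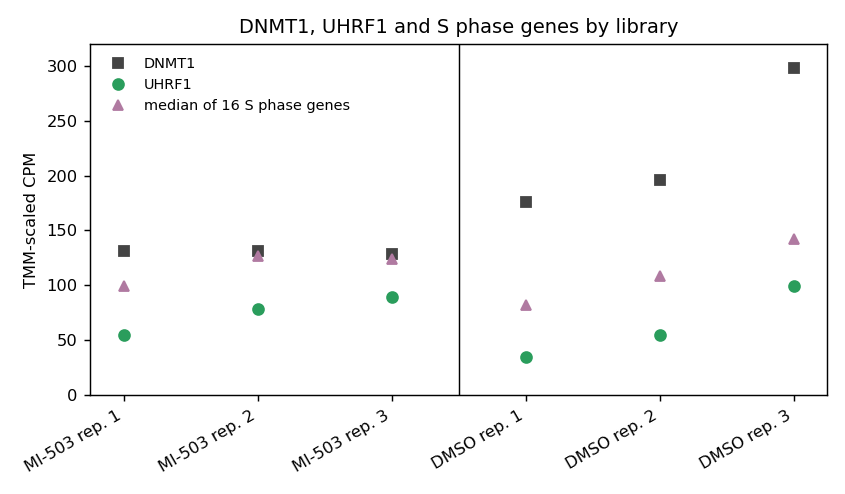
TMM-scaled CPM of DNMT1 (squares), UHRF1 (circles) and the median of 16 S phase genes (triangles) in each of the 3 libraries labelled MI-503 (left) and the 3 labelled DMSO (right). UHRF1 lies between 54.7 and 89.3 CPM on the left and between 34.6 and 99.7 CPM on the right, while DNMT1 is at 128 to 131 CPM on the left and at 176 to 298 CPM on the right.

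Of the de novo methyltransferases, DNMT3A had the greatest difference of the 9 genes and DNMT3B lay at the threshold. DNMT3A (chr2:25227855-25342590, minus strand) was at 15.7, 10.7 and 13.2 CPM with the MI-503 label, against 69.2, 52.1 and 33.6 CPM with the DMSO label. Even the lowest DMSO library, replicate 3, was well above the highest MI-503 library. The level was 3.91-fold lower, a log2 fold change of −1.97 (standard error 0.27, edgeR adjusted p = 0.00016). It stayed past the adjusted p threshold in all 16 alternative analyses, while its size depended on scale, at −1.41 from length-scaled counts and −1.23 from limma on log2(TPM + 1). DNMT3B (chr20:32762385-32809359, plus strand), highly expressed in embryonic stem cells and low in most differentiated tissue, was at 10.4, 10.5 and 13.2 CPM under MI-503, against 12.7, 19.3 and 18.8 CPM under DMSO. The ranges met only through DMSO replicate 1, which lay below MI-503 replicate 3. Its log2 fold change of −0.58 (standard error 0.23) just missed the threshold (edgeR adjusted p = 0.0513), and without DMSO replicate 1 it was −0.75 (adjusted p = 0.0138).

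MBD2 (chr18:54151606-54224669, minus strand), the reader that links methylated CpG to NuRD, was at 21.7, 30.8 and 25.2 CPM in libraries labelled MI-503, against 55.8, 57.2 and 56.8 CPM in those labelled DMSO. The DMSO values were almost the same in the 3 libraries, and every MI-503 value was far below them. The gene was 2.18-fold lower, a log2 fold change of −1.13 (standard error 0.17, edgeR adjusted p = 0.000299), and no alternative changed that call.

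Of the TET dioxygenases, TET3 was lower at the edge of the threshold, and TET2 and TET1 did not pass. TET3 (chr2:73984910-74108176, plus strand), the member known for oxidizing the paternal genome in the mouse zygote, was at 76.5, 50.1 and 42.7 CPM with the MI-503 label, against 100.4, 71.5 and 81.7 CPM with the DMSO label. MI-503 replicate 1 lay above DMSO replicate 2, so the labels overlapped. The log2 fold change was −0.58 (standard error 0.23, edgeR adjusted p = 0.0491), just past the threshold. Leaving out MI-503 replicate 2 or 3 or any 1 of the DMSO libraries ended the call, with values of −0.48, −0.40, −0.44, −0.70 and −0.61 (edgeR adjusted p = 0.0507 to 0.182), and only without MI-503 replicate 1 was it kept (−0.82, adjusted p = 0.0071). TET2 (chr4:105145875-105279816, plus strand), often mutated in blood cancers, was at 26.2, 21.9 and 22.1 CPM under MI-503, against 28.2, 16.9 and 18.2 CPM under DMSO. The MI-503 values lay inside the DMSO range, and the log2 fold change was 0.15 (standard error 0.23, edgeR adjusted p = 0.593). TET1 (chr10:68560337-68694487, plus strand), which has a CXXC domain and is best known from embryonic stem cells, was at 4.88, 6.33 and 6.48 CPM under MI-503, against 5.29, 5.57 and 3.19 CPM under DMSO. The labels overlapped, and its log2 fold change of 0.33 (standard error 0.31, edgeR adjusted p = 0.378) rested on 70 to 121 reads per library.

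Levels of different genes can be compared only per length, so TPM, which divide reads by transcript length and were summed to genes, were used for their order. With the MI-503 label DNMT1 came first at 35.2 ± 4.83 TPM, followed by UHRF1 at 25.0 ± 5.94, UHRF2 at 17.3 ± 3.19, MBD2 at 11.1 ± 4.07 and TET3 at 6.13 ± 1.87 TPM (SD, n = 3). DNMT3B at 3.37 ± 0.437, DNMT3A at 3.35 ± 0.293 and TET2 at 3.25 ± 0.330 TPM overlapped each other, as did UHRF1 with UHRF2 and MBD2 with TET3. TET1 was last at 0.807 ± 0.136 TPM. With the DMSO label DNMT1 was again first at 61.9 ± 17.8 TPM. It was followed by MBD2 at 25.8 ± 9.18, UHRF2 at 24.8 ± 3.54 and UHRF1 at 22.6 ± 11.3 TPM, which overlapped each other. The place of MBD2 rests in part on MBD2-203, a short transcript. Under DMSO it held 2.1% to 11.9% of MBD2 reads and on average 34.9% of MBD2 TPM. Next came TET3 at 10.0 ± 2.28 and DNMT3A at 9.65 ± 4.22 TPM, which also overlapped, then DNMT3B at 5.47 ± 0.903, TET2 at 3.14 ± 1.00 and TET1 at 0.687 ± 0.206 TPM. DNMT1 was thus the most abundant and TET1 the least in either label, and DNMT3A stood above DNMT3B in mean TPM only under DMSO. In TPM, unlike CPM, the values of DNMT3B, TET3 and UHRF2 also did not overlap between labels, and those with the MI-503 label were lower. The share of all genes without overlap in TPM was not computed, and in CPM it was 68.7%, so nothing particular to these genes is read from this.

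Ratios within a library do not depend on library size. TET3 made up 65.8%, 58.7% and 53.7% of the TPM of the 3 TET genes in libraries labelled MI-503, against 71.2%, 71.7% and 74.8% in those labelled DMSO. All MI-503 shares were lower, and TET3 was the main TET transcript in all 6 libraries. DNMT1 made up 86.8%, 83.7% and 80.9% of the TPM of the 3 DNMT genes under MI-503, against 72.9%, 79.1% and 86.7% under DMSO. These shares overlapped, since DMSO replicate 3 had both the highest DNMT1 and the lowest DNMT3A of its label. The ratio of DNMT1 to DNMT3A in TPM was 12.9, 10.3 and 8.69 under MI-503, against 3.51, 6.73 and 12.3 under DMSO, and here too DMSO replicate 3 overlapped the MI-503 libraries. UHRF1 over UHRF2 was 0.88, 1.72 and 1.93 under MI-503, against 0.46, 0.86 and 1.54 under DMSO, so the excess of UHRF1 depended on the library in both labels. The 9 genes together held 106, 106 and 105 TPM under MI-503, against 166, 141 and 185 TPM under DMSO, with no overlap. This sum is not a ratio and was not scaled by TMM. DNMT1 (means of 35.2 TPM under MI-503 and 61.9 under DMSO) and MBD2 (11.1 and 25.8) gave most of the gap. No background was computed for such a sum. The ratios and the sum were not tested.

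Salmon also divides the reads of a gene among its annotated transcripts, and 112 transcripts of the 9 genes were in the files, of which 81 had reads and 43 passed the filter. Of the 43, 5 were lower with the MI-503 label, 0 were higher and 38 did not pass, where 28.0% of all 51051 transcripts tested passed in either direction (edgeR, transcript counts). At an unadjusted p below 0.05, 8 were lower and 1 was higher, and the share of all transcripts at that threshold was not computed. The uncertainty of salmon's assignment between similar transcripts was not modelled. DNMT1-201, which encodes 1616 residues, took 34.6%, 23.9% and 29.3% of DNMT1 reads under MI-503, against 39.8%, 53.1% and 38% under DMSO. It was lower in reads as well (log2 fold change −1.45, standard error 0.23, edgeR adjusted p = 0.00507). The canonical DNMT1-202, with 1 more exon and 1632 residues, took 23.6%, 45.2% and 44.4% under MI-503, against 25.1%, 25.5% and 28.8% under DMSO, and did not pass (−0.39, standard error 0.36, edgeR adjusted p = 0.469). Whether the 2 forms differed from each other was not tested, and MI-503 replicate 1 had a DNMT1-202 share below those of the DMSO libraries. DNMT1-229, for which no coding sequence is defined, had no reads under MI-503 and 2.1% to 4.2% of DNMT1 reads under DMSO. It is 1 of the 5 lower transcripts. It passed the filter only through its reads in the DMSO libraries, so the filter fixed its direction.

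DNMT3A-202, the full-length form of 912 residues, took 73.3%, 75.4% and 62.9% of DNMT3A reads under MI-503, against 88.0%, 85.5% and 75.9% under DMSO, and was lower (log2 fold change −2.35, standard error 0.35, edgeR adjusted p = 0.00432). DNMT3A-203, which encodes a form of 723 residues with a shorter N terminus, took 8.2%, 21.0% and 26.4% under MI-503, against 8.8%, 0.0% and 12.6% under DMSO, and did not pass (−0.64, standard error 1.38, edgeR adjusted p = 0.771). In TPM, which counts short transcripts more heavily per read, DNMT3A-202 averaged 36.5% under MI-503 and 64.3% under DMSO. DNMT3B is spliced into several forms, some without part of the catalytic domain, and its reads moved between DNMT3B-202 (853 residues), DNMT3B-203 (770 residues) and DNMT3B-204 (833 residues) from library to library. DNMT3B-203 took 8.8%, 0.0% and 0.0% under MI-503, against 33.4%, 15.2% and 41.9% under DMSO, without overlap, and did not pass the test on reads (edgeR adjusted p = 0.0871). With 200 to 222 DNMT3B reads per library under MI-503 and 281 to 412 under DMSO, these shares rest on few reads.

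MBD2-201, the 411-residue form, held 88.1% to 97.7% of MBD2 reads in the 6 libraries and was lower like the gene (−1.23, standard error 0.18, edgeR adjusted p = 0.00421). In TPM it averaged 62.3% under MI-503 and 61.7% under DMSO, and MBD2-203, a short nonsense-mediated decay transcript, averaged 36.8% under MI-503 and 34.9% under DMSO. UHRF2-202, a short form of 136 residues, held 0.6%, 0.5% and 0.9% of UHRF2 reads under MI-503, against 3.1%, 2.5% and 1.8% under DMSO, and was lower (−2.28, standard error 0.59, edgeR adjusted p = 0.0283), while the main form UHRF2-201 did not pass (adjusted p = 0.218). UHRF2-202 had 3.6 to 6.8 reads per library under MI-503 and 19.9 to 38.5 under DMSO. Its DMSO reads alone took it past the filter, so its direction was fixed too. For TET2 the canonical TET2-203 (2002 residues) took 43.2%, 74.6% and 34.1% under MI-503, against 62.5%, 87.5% and 56.5% under DMSO, with overlap. TET2-202, a form of 1165 residues, took 29.6%, 9.6% and 6.5% under MI-503, against 3.8%, 1.1% and 2.1% under DMSO, without overlap, and did not pass (edgeR adjusted p = 0.0823). TET2-207 and TET2-209 were given equal shares in every library and could not be told apart. TET3-202 held 99.6% to 100% of TET3 reads, and TET1 has 1 transcript in the files. UHRF1-208 was the main UHRF1 form, with 86.7%, 65.8% and 64.5% under MI-503, against 91.3%, 38.1% and 41.7% under DMSO. In both labels replicate 1 had little UHRF1-207, at 5.7% in each, against 27.4% to 34.1% in the other 4 libraries.

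**Figure D4:**
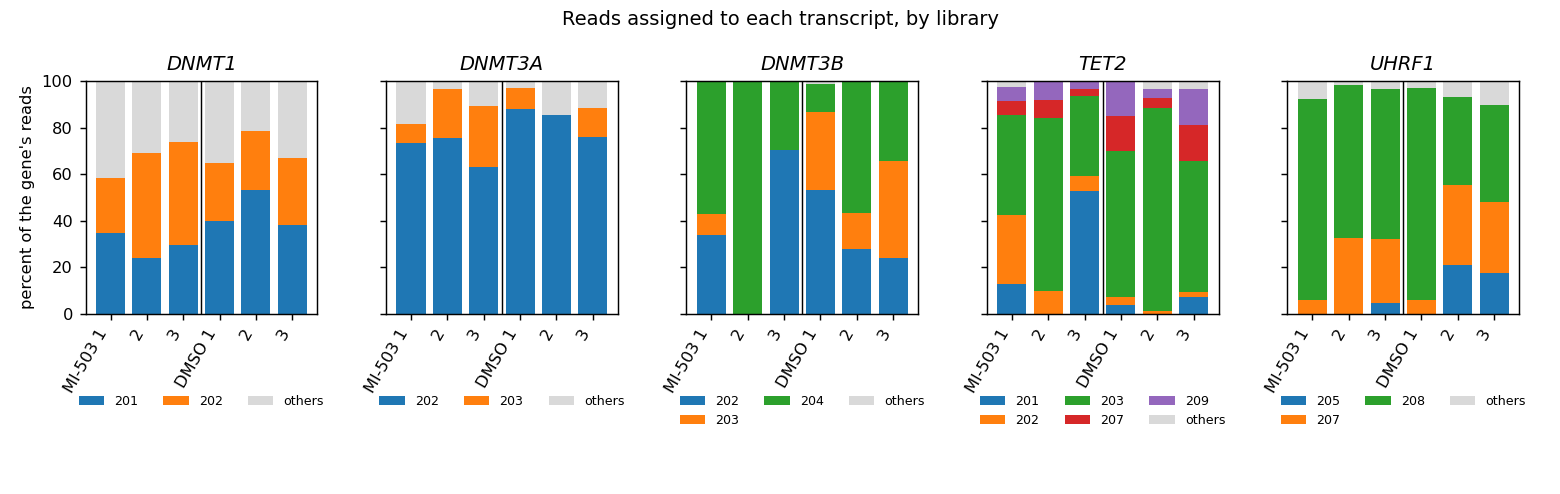
Percent of the reads of DNMT1, DNMT3A, DNMT3B, TET2 and UHRF1 given by salmon to each transcript that took at least 10% in the mean of either label, in the 3 libraries labelled MI-503 (left of the line) and the 3 labelled DMSO (right). DNMT1-201 takes 23.9% to 34.6% on the left and 38% to 53.1% on the right, and the DNMT3B bars vary from library to library within each label.

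Among 10 listed partners of maintenance and de novo methylation, 8 passed the filter, with 1 higher, 3 lower and 4 not past the test, and a median log2 fold change of −0.11. With no filter on low counts or with length-scaled counts, 2 of them were higher. CDCA7, which brings the remodeller HELLS to hemimethylated nucleosomes, had no reads in any library labelled MI-503, against 27.0, 29.1 and 51.2 CPM in those labelled DMSO. Against a floor of 3 reads over the label, this was at least 675-fold lower (edgeR adjusted p = 2.44e-06), and the floor covers counting error only. CDCA7, 1 of the 3 lower partners, passed the filter only through its DMSO reads, so the filter fixed its direction. HELLS itself was higher, at 49.5, 65.3 and 47.3 CPM under MI-503 against 16.2, 21.0 and 37.2 CPM under DMSO (log2 fold change 1.12, standard error 0.29, edgeR adjusted p = 0.00674). The 2 partners of 1 remodelling complex thus differed in opposite directions. ZBTB24, the transcription factor known to drive CDCA7, was lower, at 10.6 ± 0.215 CPM under MI-503 and 29.6 ± 1.40 CPM under DMSO (SD, n = 3 each), and so was the tRNA methyltransferase TRDMT1. PCNA, the sliding clamp that binds DNMT1, and the deubiquitinase USP7 did not pass, with log2 fold changes of 0.08 and −0.13 (edgeR adjusted p = 0.806 and 0.465).

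The other proteins of the methyl-CpG binding families were split, with 4 of 9 tested higher, 2 lower (MBD3 and ZBTB33) and 3 not past the test, and a median log2 fold change of 0.41. With limma, and without any 1 library other than DMSO replicate 3, 1 of the 9 was lower. MBD3, which takes the place of MBD2 in other NuRD complexes and in mammals does not itself bind methylated CpG, was lower, at 41.3, 44.8 and 61.4 CPM under MI-503 against 203.7, 230.3 and 225 CPM under DMSO (log2 fold change −2.16, standard error 0.18, edgeR adjusted p = 6.09e-06). Both MBD proteins of NuRD were therefore lower. ZBTB4, a zinc finger reader, was higher at 159 ± 13 CPM under MI-503 and 39.9 ± 1.46 CPM under DMSO, and so was MBD6 at 208 ± 52.1 CPM under MI-503 and 56.8 ± 16.9 CPM under DMSO. The thymine glycosylase MBD4 was also higher, at 53.9 ± 6.65 CPM under MI-503 and 27.9 ± 1.87 CPM under DMSO (SD, n = 3 each). Of 12 other NuRD subunits, 6 were lower, 3 higher and 3 not past the test (median log2 fold change −0.43). The deacetylase HDAC2 averaged 70.0 ± 11.0 CPM under MI-503 and 206 ± 5.70 CPM under DMSO, and HDAC1 averaged 119 ± 11.7 CPM under MI-503 and 229 ± 10.2 CPM under DMSO. The histone-binding subunit RBBP7 was higher, at 496 ± 33.0 CPM under MI-503 and 128 ± 15.4 CPM under DMSO, and so was the zinc finger subunit GATAD2B, at 105 ± 28.1 CPM under MI-503 and 39.2 ± 5.60 CPM under DMSO (SD, n = 3 each). The shares called are to be read against 31.7% of all genes higher and 31.2% lower.

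Of 9 TET partners and CXXC proteins, 6 passed the filter, with 3 higher, 2 lower and 1 not past the test (median log2 fold change 0.98). Without MI-503 replicate 2 or without replicate 3, 1 of the 6 was lower. WT1, a transcription factor that recruits TET2, was at 12.5 ± 3.71 CPM under MI-503 and 1.42 ± 0.311 CPM under DMSO, and CXXC5, one of the small CXXC proteins, was at 155 ± 13.4 CPM under MI-503 and 51.8 ± 16.5 CPM under DMSO (SD, n = 3 each). CXXC4, which binds TET2 and can lead to its loss, had 65 reads under MI-503 and 2 under DMSO, a ratio of 37.2 (95% counting interval 9.90 to 314). CXXC4, 1 of the 3 higher genes, passed the filter only through its MI-503 reads, so the filter fixed its direction. The lower genes were SINHCAF and OGT. SINHCAF, a subunit of the SIN3 deacetylase complex, averaged 34.7 ± 4.52 CPM under MI-503 and 95.9 ± 18.9 CPM under DMSO (SD, n = 3 each). OGT, the glycosyltransferase that binds TET2 and TET3, was at 103 ± 34.1 CPM under MI-503 and 196 ± 56.8 CPM under DMSO (log2 fold change −0.93, edgeR adjusted p = 0.0125). Of 13 genes of base excision and demethylation repair, 7 were higher, 5 lower and 1 not past the test (median log2 fold change 0.72). TDG, which removes the oxidized bases that TET enzymes make, was lower, at 71.5, 74.6 and 74.7 CPM under MI-503 against 89.0, 105 and 119 CPM under DMSO (log2 fold change −0.50, standard error 0.15, edgeR adjusted p = 0.0164). The glycosylase NEIL2 was lower at 8.82 ± 1.05 CPM under MI-503 and 65.2 ± 11.5 CPM under DMSO, and APEX1 and PARP1 were lower too, with log2 fold changes of −0.997 and −1.18, while the ligase LIG3 was higher, at 1.10. The enzymes of this repair path thus did not differ in 1 direction.

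The genes that supply substrates were mixed as well. Of 12 genes of methyl donor supply, 3 were higher, 5 lower and 4 not past the test (median log2 fold change −0.04). MAT2A, the catalytic subunit that makes S-adenosylmethionine, was lower at 136 ± 16.4 CPM under MI-503 and 314 ± 65.4 CPM under DMSO, and its regulatory subunit MAT2B was higher at 89.5 ± 11.7 CPM under MI-503 and 35.5 ± 4.79 CPM under DMSO (SD, n = 3 each). NNMT, which uses up the methyl donor on nicotinamide, had 2 reads under MI-503 and 69 under DMSO, a ratio of 30.1 of DMSO over MI-503 (95% counting interval 8.03 to 254). NNMT, 1 of the 5 lower genes, passed the filter only through its DMSO reads, so the filter fixed its direction. SHMT2, the mitochondrial serine hydroxymethyltransferase, was lower, at 366 ± 6.40 CPM under MI-503 and 703 ± 177 CPM under DMSO (SD, n = 3 each). Of 14 genes for oxoglutarate and other TET cofactors, 3 were higher, 7 lower and 4 not past the test (median log2 fold change −0.25). IDH1, the cytosolic enzyme that makes oxoglutarate, was at 81.3, 80.6 and 79.9 CPM under MI-503 against 498, 408 and 281 CPM under DMSO (log2 fold change −2.30, standard error 0.21, edgeR adjusted p = 1.02e-05). Its mitochondrial counterpart IDH2 was at 488, 572 and 479 CPM under MI-503 against 177, 201 and 174 CPM under DMSO (1.48, standard error 0.15, edgeR adjusted p = 2.22e-05). The 2 isoenzymes thus differed in opposite directions, with no overlap for either. The transporters SLC2A1 (glucose and dehydroascorbate) and SLC23A2 (ascorbate) were lower, with log2 fold changes of −1.36 and −0.98 (edgeR adjusted p = 8.18e-05 and 0.00181). Without MI-503 replicate 2 or without replicate 3, 4 and not 7 of these cofactor genes were lower.

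Genes that methylation is known to silence outside the germline were mostly too low for the test. Of 14 such germline genes, 2 passed the filter, both lower with the MI-503 label. Both passed only through their reads in the DMSO libraries, so the filter fixed this direction. SOHLH2, a germ cell transcription factor, had 1 read under MI-503 and 1177 under DMSO, a ratio of 1027 of DMSO over MI-503 (95% counting interval 184 to 40600), and TDRD1, a Tudor protein of the piRNA pathway, had 6 reads under MI-503 and 219 under DMSO. The other 12 did not pass the filter on low counts. With no filter and with DESeq2, 3 of the 14 were lower and 0 were higher. Of the 14, 8 had no reads at all under MI-503, against 5 under DMSO.

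**Figure D5:**
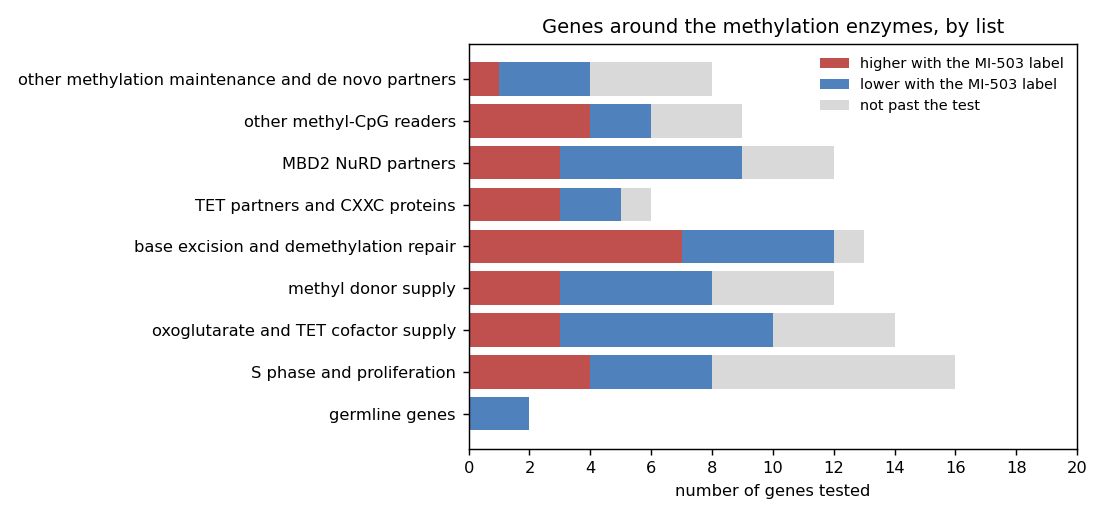
Number of genes tested in each of 9 lists around the methylation enzymes that were higher (red), lower (blue) or not past the test (grey) with the MI-503 label relative to the DMSO label, at an edgeR adjusted p under 0.05. Most lists hold genes of both directions, for example 7 higher and 5 lower of 13 in base excision and demethylation repair.

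For each gene the 3 protein-coding genes with the most similar profile were found among 11644 genes, by the root mean square difference of centred log2(CPM + 1) over the 6 libraries. This measure is fixed mostly by the difference between the labels, and shared function or control is not read from it. UHRF1 lay nearest to FEN1 (0.06), ZWINT (0.13) and MCM4 (0.16), DNMT1 to ERVK3-1, FASTK and ORC2 (0.07 to 0.08), and DNMT3A to TANC1, ODF3B and PARP8 (0.10 to 0.12). MBD2 lay nearest to THOC5, CBFB and CMBL (0.06 to 0.07), DNMT3B to MTFR2, PSMA7 and AKIP1 (0.06), and UHRF2 to SCAMP4, TARBP1 and USP43 (0.05 to 0.07). TET1 lay nearest to MORN4, SMIM19 and TMEM230 (0.06 to 0.08), TET2 to ZNF844, INPP5K and CREBBP (0.07 to 0.08), and TET3 to KLHL21, NPHP4 and PLPP3 (0.09 to 0.11). The neighbours of TET2 and UHRF1 had log2 fold changes between the labels of 0.006 to 0.24. Those of DNMT3A had −2.99 to −1.91, against −1.97 for DNMT3A itself.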

How the data were processed

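RNA was sequenced from 6 libraries, 3 per label, and the study describes the 3 as independent experiments. From salmon, the authors deposited estimated counts per transcript, which are not normalized. The deposited files also hold transcript lengths and the TPM that salmon derives within a library from counts and effective lengths. The submitters' processing notes name the builds GRCh38.p13 and hg38. Not given in the sources used here: the salmon version, its options and the annotation release.

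Transcripts were matched to GENCODE release 44 by identifier without version (229321 of 232117, 98.8%, holding at least 99.155% of each library's reads). Estimated counts were added up per gene (61279 genes) and then rounded, and TPM were added up likewise. No column belonged to a sample outside the series. CPM were scaled with TMM factors of 0.934 to 1.05. The labels were compared with edgeR 4.0.16 (R 4.3.3; quasi-likelihood test after filterByExpr, Benjamini-Hochberg adjustment over 16442 genes, and over 51051 transcripts for transcript counts). Alternatives used DESeq2 1.42.0, limma 3.58.1 on log2(TPM + 1), other scalings and filters, length-scaled counts, no mitochondrial genes, a replicate block, and each library left out in turn. Errors are SDs of 3 libraries unless named standard errors, and p-values measure the spread between these libraries. Counting intervals and floors (3 reads over a label) cover counting error only, because PCR copies could not be removed without molecular identifiers.

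Genes were the 9 members, up to 4 of each of 9 pathway lists with the smallest adjusted p, and others needed for a count. TDG, PCNA, USP7 and MBD2-203 were named after their values were seen. Transcripts named were those with at least 10% of the reads of a gene in the mean of either label, or that passed the test. The members, the 9 pathway lists and the 4 marker lists were chosen with earlier results of these data known. The values of 1 listed gene are not reported here. Promoters are from a RefSeq table (GRCh38.p14), which held entries for all 9 genes.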

Additional observations from a re-analysis of the deposited data

How the results depend on the processing

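DNMT1, DNMT3A and MBD2 passed in all 16 alternatives, with log2 fold changes of −0.93 to −0.52, −2.20 to −1.23 and −1.25 to −0.97, and TET1 and TET2 in none (0.10 to 0.51 and 0.005 to 0.41). DNMT3B passed with upper-quartile scaling (−0.68), library totals (−0.70), a filter of 1 CPM in 3 libraries (−0.59), mitochondrial genes left out (−0.62) and limma (−0.56), and ranged from −0.75 to −0.47 with 1 library left out. TET3 did not pass with limma (−0.64), and ranged from −0.82 to −0.40 with 1 library left out. UHRF1 ranged from −0.065 to 0.73 and UHRF2 from −0.46 to −0.16 with 1 library left out, and UHRF2 passed with limma (−0.50). The number of the 9 genes that were higher was then 0 to 1, and the number lower was 3 to 5, with 3 without MI-503 replicate 2 or 3 or DMSO replicate 2 or 3. The cause of these changes was not tested.

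Library totals moved the median log2 fold change of all genes to −0.12 and upper-quartile scaling to −0.10. Limma on log2(TPM + 1) moved it to −0.056 and leaving out mitochondrial genes to −0.047. Negative values under these settings are partly that shift. DNMT3A passed the limit of 2 with library totals and upper-quartile scaling (−2.09 and −2.06), with mitochondrial genes left out (−2.01), without DMSO replicate 3 (−2.20) and without MI-503 replicate 1 (−2.06). Deviations of log2(CPM + 1) from the mean of the label were correlated between same-numbered libraries. The Pearson correlations were −0.009, 0.16 and −0.037 across 11867 genes, against −0.22 to 0.15 for libraries with different numbers. Whether the numbers pair the libraries was not tested. The replicate block gave 5071 higher and 4913 lower genes, against 5208 and 5130 without it, with log2 fold changes of −0.74 for DNMT1, −1.93 for DNMT3A, −1.14 for MBD2 and −0.61 for TET3, and changed no call among the 9 genes. TET1 had the fewest reads of the 9 genes, with 70 to 121 per library.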
